A study of Mus musculus with 6 samples.

Results

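Stefins and cystatins are natural inhibitors of papain-like cysteine proteases, the enzymes that cut proteins inside lysosomes and along the antigen-processing route. The genes described here are Stfa2, Stfa2l1, Stfa3, Cstb, Cst3 and Cst7, and every probe set was taken whose platform annotation holds 1 gene symbol that is one of these 6. That gave 6 probe sets, out of 45101 on the array, for 5 of the 6 genes, out of 18194 genes that the annotation names in this way: Stfa2l1, Stfa3, Cst3 and Cst7 have 1 each and Cstb has 2, and Stfa2 is named by none. All 6 probe sets passed the filter on low values.

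The samples were mouse dendritic cells grown from whole bone marrow of C57BL/6 mice for 6 days with GM-CSF, a myeloid growth factor, at 10 ng/ml, and both groups share this strain and treatment. Cells with CD11c and MHC class II on their surface were sorted into a Ly6G+ and a Ly6G- group (Ly6G+ DC and Ly6G- DC), Ly6G being a surface protein of neutrophils, with 3 Affymetrix Mouse Genome 430 2.0 arrays per group. The 2 groups were sorted from the same cultures, but the labels do not say how many animals were used, whether marrow was pooled, or which arrays share a culture, so the p-values reflect variation among these samples alone, and part or all of it may be technical. The comparison asks how the expression of these inhibitors differs between dendritic cells with and without a neutrophil surface protein.

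Stefins lack a secretion signal and act in the cytosol. The mouse carries a row of stefin A genes, whose transcripts are known from neutrophils and their precursors, and Cstb encodes stefin B, which most cells make. Cst3 encodes cystatin C, a secreted inhibitor that dendritic cells and macrophages make in large amounts, and Cst7 encodes cystatin F, which is carried to endosomes and lysosomes of immune cells and restrains cathepsin C there.

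The stefin A genes had the largest differences among these probe sets, and the others had smaller ones or followed a split between arrays that is not the sort. Stfa2l1 was 21.1-fold and Stfa3 4.20-fold higher in Ly6G+ DC, Cst7 was 3.27-fold higher with overlapping groups, and Cstb and Cst3 had log2 fold changes between -0.33 and 0.79. Folds come from log2 fold changes of signal + 16, as Ly6G+ over Ly6G-, which understates differences of dim probe sets. After adjustment over the 28254 probe sets kept, 0 of the 6 passed an adjusted p under 0.05 in limma, and neither did any other probe set (0%). At an unadjusted p under 0.05, 3 of the 6 were higher, where 2.75% of all kept probe sets were, and 0 of the 6 were lower, where 2.87% were. With the side of the hybridization controls described next as a block, 3 of the 6 were higher (3.4% of all) and 0 lower (3.22%) at an unadjusted p under 0.05. The median log2 fold change of the 6 was 1.25, beside -0.06 over all kept probe sets. RNA of a sorted population is an average, so fewer cells of a type and less RNA per cell cannot be told apart.

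The arrays fell into 2 sides that cut across the sort. Control transcripts spiked in before hybridization had geometric mean signals of 1529 to 2039 on Ly6G+ DC 1, Ly6G+ DC 3 and Ly6G- DC 1 (the low side) and of 6688 to 12842 on Ly6G+ DC 2, Ly6G- DC 2 and Ly6G- DC 3 (the high side). The Actb 3'/5' signal ratio, a measure of how complete the labelled RNA is, was 1.17 to 1.49 on low-side arrays and 3.98 to 6.85 on high-side arrays. Each side holds 2 arrays of one sorted group and a single array of the other, so values within a side have no test. The sort gene Itgax, which encodes CD11c, was bright on all arrays, with a mean signal of 5301 ± 2578 among Ly6G+ DC against 7050 ± 2239 among Ly6G- DC (SD, n = 3). The annotation names no probe set for Ly6g, so that label was not checked.

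The stefin A genes lie side by side on mouse chromosome 16. In the RefSeq annotation of GRCm38.p6, 20 genes run from Stfa2l1 to Stfa3, of which 11 code for proteins, Stfa2 among them. Of these 11, Stfa2l1 and Stfa3 are the 2 with a probe set of their own here, and 4 are named only on probe sets that list several symbols. The copies resemble each other closely enough that the 250 bases before their start sites can be laid side by side. They are printed here because Stfa2l1 and Stfa3 both separated the sorted groups without overlap, and because Stfa2 has no probe set that could be read with them. Sequences are from RefSeq (GRCm38.p6), 5′ to 3′ on the gene's own strand, and capitals mark the runs of at least 12 bases that all 3 share.
Stfa2l1 (chr16:36156561-36156810, + strand): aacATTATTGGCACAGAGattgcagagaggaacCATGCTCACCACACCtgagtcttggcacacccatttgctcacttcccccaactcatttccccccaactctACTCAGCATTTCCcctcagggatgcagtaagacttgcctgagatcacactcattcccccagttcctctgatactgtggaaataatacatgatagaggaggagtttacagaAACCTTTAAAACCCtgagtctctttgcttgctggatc
Stfa2 (chr16:36408364-36408613, - strand): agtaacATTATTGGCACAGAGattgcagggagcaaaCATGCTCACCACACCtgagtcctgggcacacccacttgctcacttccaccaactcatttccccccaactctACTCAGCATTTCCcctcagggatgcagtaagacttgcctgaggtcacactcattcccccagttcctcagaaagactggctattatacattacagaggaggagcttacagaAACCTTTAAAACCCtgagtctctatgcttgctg
Stfa3 (chr16:36455393-36455642, - strand): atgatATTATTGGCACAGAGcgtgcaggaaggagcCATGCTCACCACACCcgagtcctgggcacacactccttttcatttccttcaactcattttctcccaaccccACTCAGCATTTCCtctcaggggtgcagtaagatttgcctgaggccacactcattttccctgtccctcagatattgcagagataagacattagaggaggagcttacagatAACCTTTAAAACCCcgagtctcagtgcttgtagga

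In all, 4 stretches are common to all 3 windows. The run nearest the start, AACCTTTAAAACCC, begins 37 bases before it in Stfa2l1, 33 in Stfa2 and 35 in Stfa3. In global alignments, Stfa2 and Stfa2l1 had 89.4% identical positions, Stfa2l1 and Stfa3 80.5%, and Stfa2 and Stfa3 80.2%. The windows of Cst3 and Cst7, on chromosome 2, had 39.5% to 46.5% identity with those of the stefins, and Cstb was not in the sequence table. A set of 3 short motifs were searched on both strands: TTGCNNAA, a core of C/EBP sites, GAGGAAGT, a core of PU.1 sites, and TATAAA. They do not overlap each other, and 0 of the 5 windows held any of them, where 9.56%, 2.44% and 12.4% of the 32851 RefSeq windows of that length did. That says only that these letters are not in these windows.

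Stfa2l1, a stefin A gene, had signals of 1536, 1038 and 2544 on the Ly6G+ arrays 1 to 3 and of 36.5, 233 and 18.1 on the Ly6G- arrays 1 to 3. Every Ly6G+ array lay above every Ly6G- array, and Ly6G- DC 2 was the highest of its group. Within their arrays, these signals stood at percentiles 92.7 to 96.7 in Ly6G+ DC and at 31.9, 74.1 and 21.2 in Ly6G- DC. The log2 fold change was 4.40 ± 0.66 (SE), with a 95% confidence interval of 2.94 to 5.85 and an adjusted p of 0.185 by limma. Only 3 of the 28254 kept probe sets, itself included, had a log2 fold change this high. On Ly6G- DC 1 and 3 the signal was below the array's 40th percentile, a level that stands in here for background. With those arrays set at that percentile the fold is 14.5 in place of 21.1.

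The difference of Stfa2l1 was present on both sides of the hybridization controls. It was 5.25 within the low side and 3.51 within the high side, and 4.38 ± 0.68 (SE) with the side as a block in limma (adjusted p = 0.130). Leaving out arrays gave log2 fold changes from 3.82, without Ly6G- DC 3, to 5.25, without Ly6G- DC 2. The adjusted p by limma passed the threshold when Ly6G- DC 1 (0.0436) or Ly6G- DC 2 (0.0260) was left out and with the array name from the titles, which sets the arrays numbered 1 apart from the others, as a block (0.0196). Over all 18 alternative settings it ranged from 0.0196 to 0.9998.

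Stfa3, a neighbouring stefin A gene, had signals of 334, 530 and 906 on Ly6G+ arrays, against 63.96, 228 and 106 on Ly6G- arrays. The groups did not overlap, and the gap between the lowest Ly6G+ array (1) and the highest Ly6G- array (2) was smaller than the range within either group. All 6 signals were above the 40th percentile of their array. On the log2 scale the difference was 2.07 ± 0.48 (SE), with an interval of 0.999 to 3.14 and an adjusted p of 0.768 by limma. It was 2.83 within the low side and 1.66 within the high side, and 2.25 ± 0.47 (SE) with the side as a block (adjusted p = 0.430). Without single arrays it ran from 1.70 to 2.51. Of all kept probe sets, 0.195% had a log2 fold change at or above that of Stfa3.

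Both stefin A probe sets put Ly6G- DC 2 highest among the Ly6G- arrays and Ly6G+ DC 3 highest among the Ly6G+ arrays. Not overlapping in the higher direction was thus true of 2 of the 6 probe sets, and of 4.49% of all kept probe sets. It held under quantile normalization and under scaling to a common median as well. The copies of this cluster are alike in sequence, and no probe sequences or transcripts were used here, so how much of each signal came from a neighbouring copy was not tested.

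**Figure D1:**
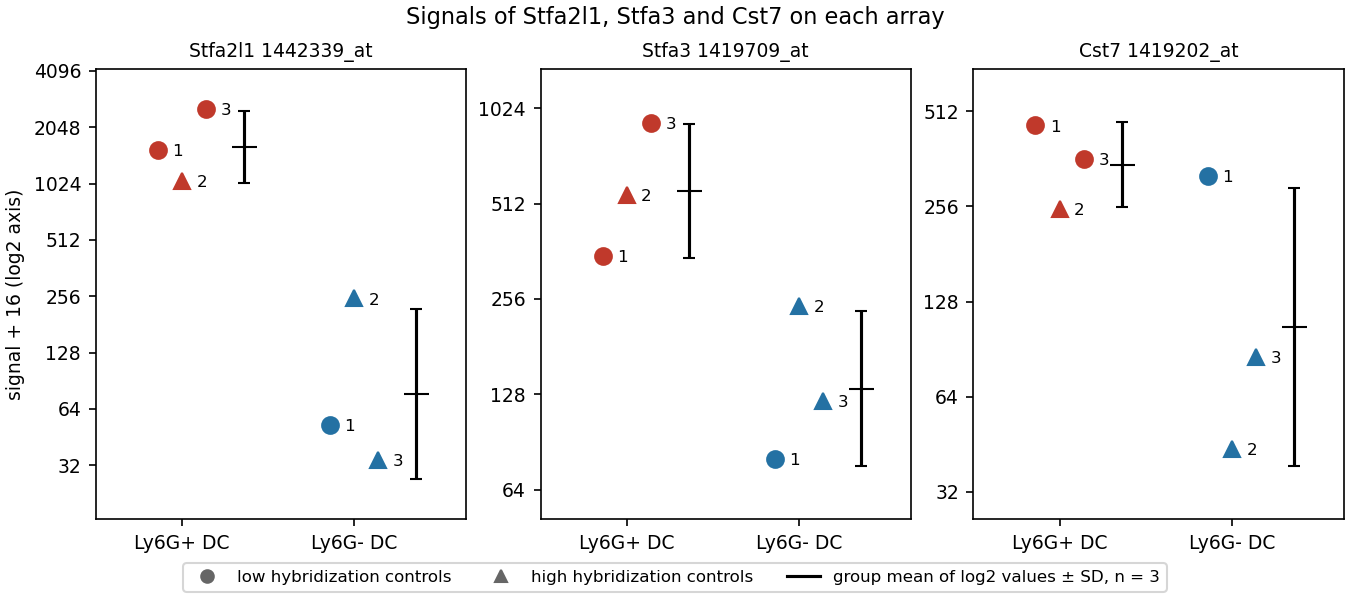
Signal + 16 (log2 axis) of Stfa2l1, Stfa3 and Cst7 on the 3 Ly6G+ DC (red) and 3 Ly6G- DC (blue) arrays, numbered as in the labels. Circles are arrays with low and triangles arrays with high hybridization controls, and bars give the mean ± SD of log2 values. The groups are apart for both stefins, while for Cst7 the array Ly6G- DC 1, at a signal of 304, lies among the Ly6G+ arrays (235 to 445).

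Cst7, cystatin F, had a difference between the groups that was small within the low side of the arrays and larger within the high side. Its signals were 445, 235 and 345 on Ly6G+ arrays, against 304, 27.9 and 69.4 on Ly6G- arrays. The groups overlapped, since Ly6G- DC 1 lay above Ly6G+ DC 2, and Ly6G- DC 2 was below its array's 40th percentile. Between the groups the log2 fold change was 1.71 ± 0.63 (SE), with an interval of 0.31 to 3.11, an unadjusted p of 0.0217 and an adjusted p of 0.836 by limma. Within the low side it was 0.35 and within the high side 2.04. All 3 arrays of the low side (304 to 445) were brighter than all 3 of the high side (27.9 to 235), which was true of 11.5% of kept probe sets. With the side as a block the log2 fold change was 1.19 ± 0.45 (SE) by limma, with an adjusted p of 0.747. The unadjusted p was 0.0609 to 0.0911 when array 1 or 3 of the Ly6G+ group, or array 2 or 3 of the Ly6G- group, was left out, so Cst7 then no longer counts among the 3 higher probe sets. Leaving out Ly6G- DC 2 gave a log2 fold change of 1.07 and leaving out Ly6G- DC 1 gave 2.50, and the difference between the sides was not tested.

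Cystatin F is also a gene of T and NK lymphocytes, so their markers stand beside it. Of 19 listed markers 7 were kept, of which 6 had negative log2 fold changes, with a median of -0.74. Their mean log2 level was 6.44 to 7.38 on the Ly6G+ arrays and 7.39 to 7.98 on the Ly6G- arrays. The brightest were Klrd1, Zap70 and Cd8a, with log2 fold changes of -0.86, -1.42 and -0.61. The part of such cells in the Cst7 values was not tested.

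Cstb, stefin B, was bright on every array, and its 2 probe sets gave different accounts. The probe set 1422506_a_at had signals of 16362, 28037 and 18262 on Ly6G+ arrays, against 14745, 30002 and 25829 on Ly6G- arrays. The probe set 1422507_at had 6828, 3050 and 7607 on Ly6G+ arrays, against 6569, 2501 and 1870 on Ly6G- arrays. The groups overlapped in both. The first was higher on every array of the high side than on every array of the low side, as were 17.3% of kept probe sets, and the second was lower there, as were 11.5%. Mean log2 values on the high side minus the low side were 0.77 for the first and -1.52 for the second.

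The group differences of Cstb did not pass the test and depended on the side. The log2 fold change of 1422506_a_at was -0.15 ± 0.43 (SE), with an interval of -1.10 to 0.80 and an adjusted p of 0.954 by limma. Its sign turned with the side as a block (0.12), under quantile normalization (0.20) and under common median scaling (0.18). Common median scaling moved the median of all kept probe sets from -0.06 to 0.23. For 1422507_at the log2 fold change was 0.79 ± 0.51 (SE), with an interval of -0.35 to 1.92 and an adjusted p of 0.844 by limma. It was 0.13 within the low side, 0.49 within the high side and 0.31 ± 0.23 (SE) with the side as a block (limma, adjusted p = 0.831). Without Ly6G- DC 1 it was 1.32, and without Ly6G- DC 3 it was 0.42.

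The signal ratio of the 2 Cstb probe sets, 1422506_a_at over 1422507_at, was 2.24 to 2.40 on low-side arrays, against 9.19 to 13.8 on high-side arrays, lowest on Ly6G+ DC 2 and highest on Ly6G- DC 3. A changing ratio within an array shows that the probe sets changed unequally, and does not say which of them did. The 3'/5' ratio of Actb on the same arrays was 3.98 on Ly6G+ DC 2, 6.85 on Ly6G- DC 2 and 6.55 on Ly6G- DC 3. The part of RNA completeness in the Cstb values was not tested, and the files used here do not place the probe sets along the transcript.

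**Figure D2:**
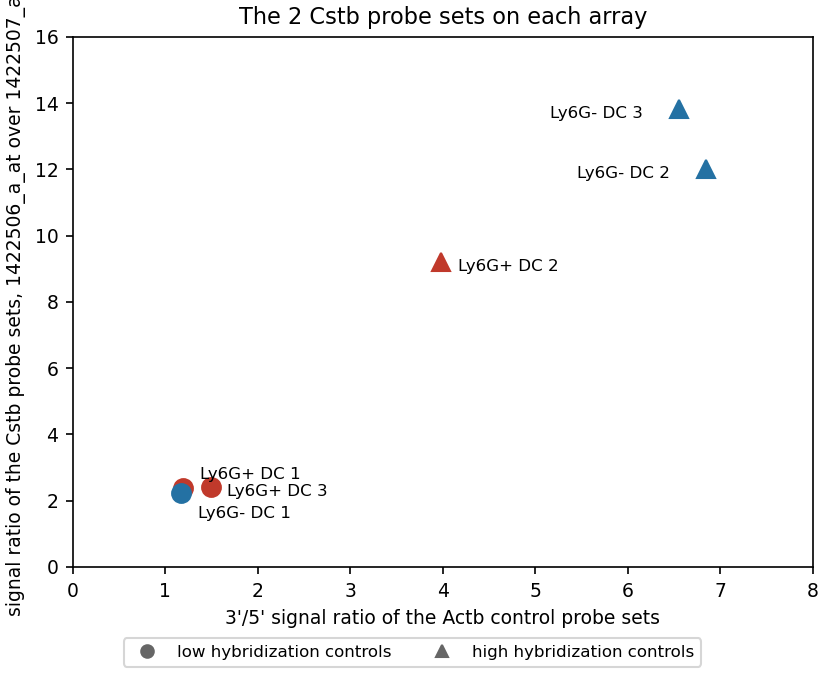
Signal ratio of the Cstb probe sets 1422506_a_at and 1422507_at against the 3'/5' signal ratio of the Actb control probe sets, 1 point per array (red Ly6G+ DC, blue Ly6G- DC, circles low and triangles high hybridization controls). The 3 low-side arrays lie together at a Cstb ratio of 2.24 to 2.40, and the 3 high-side arrays lie at 9.19 to 13.8, with both sorted groups on each side.

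Cst3, cystatin C, was among the brightest probe sets of every array, above the 99.5th percentile. Its signals were 17062, 16719 and 19303 on Ly6G+ arrays, against 22292, 20211 and 24500 on Ly6G- arrays. Every Ly6G+ array was below every Ly6G- array, with a narrow gap between Ly6G+ DC 3 and Ly6G- DC 2. Not overlapping in the lower direction was true of 1 of the 6 probe sets and of 7.24% of all kept probe sets. The log2 fold change was -0.33 ± 0.35 (SE), a ratio of group means of 0.792, with an interval of -1.11 to 0.45 and an adjusted p of 0.879 by limma. It was -0.30 within the low side, -0.41 within the high side and -0.35 ± 0.21 (SE) with the side as a block (adjusted p = 0.800). The SD of the log2 values of Cst3 was 0.11 among Ly6G+ DC and 0.14 among Ly6G- DC (n = 3). The SE of limma draws in part on other probe sets of like brightness, so it is not the spread of Cst3 alone.

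The separation of Cst3 rested on the scaling of the arrays. Under quantile normalization and under scaling to a common median the groups overlapped, with log2 fold changes of -0.19 and -0.003. Scaling to a common median moved the median of all kept probe sets from -0.06 to 0.23, so relative to all probe sets Cst3 was still on the lower side. Of the dendritic cell markers set beside Cst3, 22 of 25 kept had negative log2 fold changes with a median of -0.70. Of all 13262 genes kept, 7391 were negative, and 0 of the markers passed the adjusted threshold of limma. Groups did not overlap in the lower direction for 12 of the 25, beside 7.86% of all genes. At an unadjusted p under 0.05 by limma, 10 of the 25 were lower (3.19% of all genes) and 0 higher (2.99%). Under common median scaling 19 of the 25 were negative, with a median of -0.37, and 2 were lower and 1 higher at that unadjusted threshold. Their mean log2 level was 11.3 to 11.7 on the Ly6G+ arrays and 11.99 to 12.3 on the Ly6G- arrays, and the brightest, H2-Aa, Cd74 and H2-Eb1, had log2 fold changes of -1.30, -1.02 and -0.47, and of -0.61, -0.63 and -0.42 with the side as a block. H2-Aa had signals of 14475 to 22344 on low-side arrays, against 62040 to 120546 on high-side arrays. H2-Aa, Cd74 and H2-Eb1 belong to the MHC class II system on which the cells of both groups were sorted. Both groups passed that same sort, and its part in the differences of these genes was not tested.

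**Figure D3:**
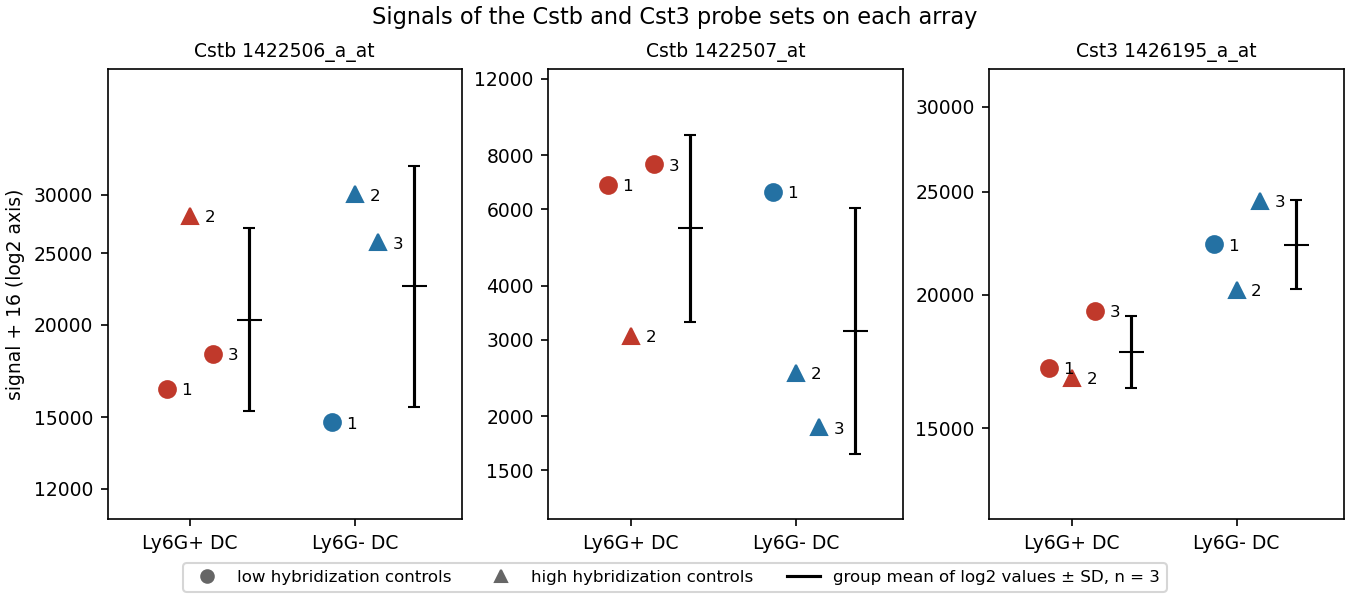
Signal + 16 (log2 axes, with a different range in each panel) of the 2 Cstb probe sets and of Cst3 on each array, in red for Ly6G+ DC and blue for Ly6G- DC, with circles for low and triangles for high hybridization controls and bars for the mean ± SD of log2 values. Circles and triangles separate in both Cstb panels, in opposite directions, while in the Cst3 panel the sorted groups separate by a narrow gap that closed under quantile normalization and common median scaling.

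Side by side, the smallest difference of a stefin A probe set within a side was 1.66, for Stfa3 on the high side. Cst7 had 0.35 and 2.04 within the low and the high side, and the values of Cstb and Cst3 ran from -0.41 to 0.49. Each of these rests on a single array of 1 group. The intervals of the stefin A probe sets from all 6 arrays lay above 0, as did that of Cst7, and those of Cstb and Cst3 included 0. The intervals are for single probe sets and are not adjusted for the number tested.

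**Figure D4:**
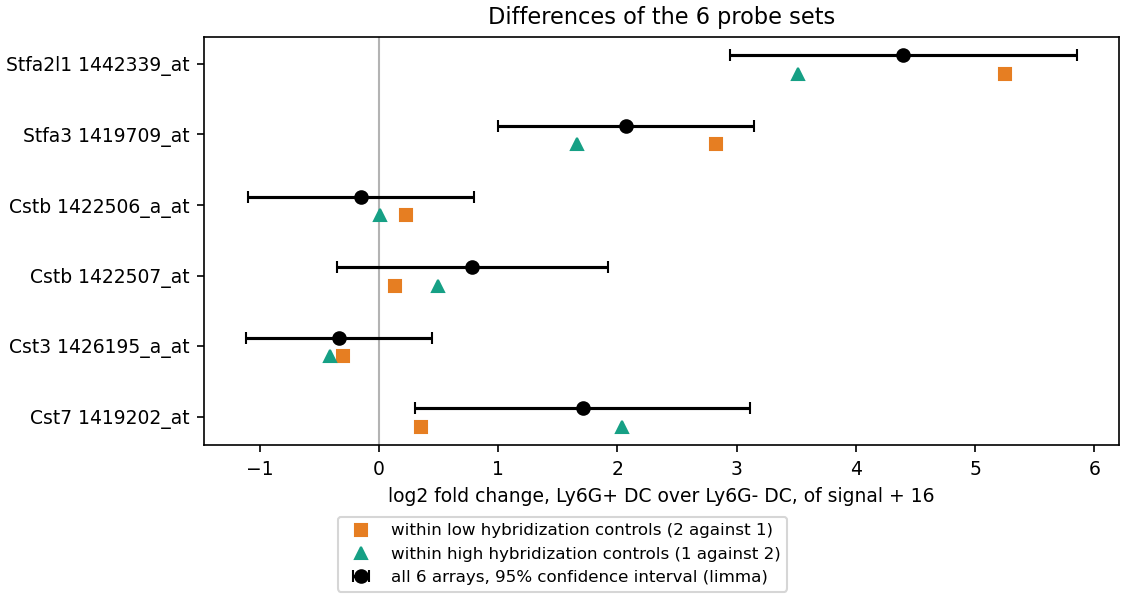
Log2 fold changes of signal + 16, Ly6G+ DC over Ly6G- DC, for the 6 probe sets: black points with 95% confidence intervals from limma on all 6 arrays, orange squares within the low and green triangles within the high side of the hybridization controls. Stfa2l1 and Stfa3 lie between 1.66 and 5.25 in all 3 measures, Cst7 has 0.35 (low) and 2.04 (high), and Cstb 1422506_a_at changes sign between the whole set (-0.15) and the sides (0.23 and 0.01), as it does under quantile normalization and common median scaling.

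Neutrophil markers had mostly positive differences beside those of Stfa2l1 and Stfa3, and 0 of them passed the adjusted threshold of limma. Of 30 listed markers other than stefins, 24 were kept, and 23 of them had positive log2 fold changes with a median of 2.48, while the median over all 13262 genes kept was -0.07. Groups did not overlap in the higher direction for 18 of the 24, beside 4.95% of all genes. Their mean log2 level was 9.91 to 10.6 on the Ly6G+ arrays and 7.48 to 8.75 on the Ly6G- arrays. The brightest, Mmp8, S100a8 and S100a9, had log2 fold changes of 0.59, 3.53 and 4.07. S100a8, a subunit of the calcium-binding complex calprotectin, had signals of 22222, 24449 and 30299 on Ly6G+ arrays, against 2434, 4628 and 925 on Ly6G- arrays, so Ly6G+ DC 3 was again the highest Ly6G+ array and Ly6G- DC 2 the highest Ly6G- array. The part of such cells in the stefin values was not tested.

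Lists of other cells that the sort could hold were counted as well, and 0 of their genes passed the adjusted threshold of limma. Of 10 monocyte markers kept 8 were positive (median log2 fold change 0.80), of 15 macrophage markers 10 (0.19), of 6 mast cell, basophil and eosinophil markers 4 (0.81), of 9 B lymphocyte markers 1 (-0.25) and of 4 erythroid genes 1 (-0.28). Groups did not overlap in the higher direction for 5 of the 10 monocyte markers and for 2 of the 6 mast cell, basophil and eosinophil markers, beside 4.95% of all genes, and for 0 markers of the other 3 lists. The mean log2 level of the monocyte markers was 9.46 to 9.69 on the Ly6G+ arrays and 8.38 to 9.28 on the Ly6G- arrays, and the brightest, Fn1, Emilin2 and Ccr2, had log2 fold changes of 0.75, 0.86 and 1.06. That of the mast cell, basophil and eosinophil markers was 7.43 to 8.11 and 6.18 to 7.31, and the brightest, Prg2, Gata2 and Epx, had 2.61, -0.25 and 1.98. Prg2 and Epx encode granule proteins of eosinophils. Like that of the neutrophil markers, the mean levels of both lists were thus higher on all Ly6G+ arrays than on all Ly6G- arrays, as Stfa2l1 and Stfa3 were, and their part in the stefin values was not tested. Under common median scaling the B lymphocyte and erythroid medians turned positive (0.04 and 0.03). That scaling moved the median over all genes kept from -0.07 to 0.24, so both lists still lay below it. Csf1r, Gpnmb and C1qb, the brightest macrophage markers, had log2 fold changes of -0.08, 0.07 and -0.36, and the signs of Csf1r (0.15) and C1qb (0.10) turned with the side as a block.

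The genes whose pattern over the 6 arrays was most like each inhibitor were taken by Pearson's r of log2(signal + 16) among 13257 other genes, as a description, since the points share 2 groups and 2 sides. For Stfa2l1 they were Cd177 and Camp (r = 0.995 each), then Hps3, Tmx4 and Klf10 (0.988 to 0.991). Cd177 is a neutrophil surface protein and Camp an antimicrobial peptide of neutrophil granules. For Stfa3 they were Abca13 (0.999), Kiz, Tspan14, Wdr7 and Serpinb2 (0.985 to 0.996). For Cst3 they were Tcea3 (0.997), Rapgef5, Cdkal1, Zc3h6 and Atp8a2 (0.981 to 0.988), and for Cst7 Exosc10, Phc3, Rspo2, Nt5c2 and Usp16 (0.987 to 0.993). For Cstb 1422506_a_at they were Mxd4, Lrwd1, Mfsd13a, Zfp101 and Pcdh18 (0.993 to 0.997). With 6 arrays high values are common: 207 genes had r above 0.95 with Cstb, 61 with Cst7, 56 with Stfa2l1, 53 with Stfa3 and 21 with Cst3.

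Of 28 other stefin, cystatin and cystatin-related genes listed, 12 had a probe set with 1 symbol, and the other 16 were not read here on one of their own. Of the 12, 11 fell below the filter on low values and 1 was kept, Fetub, which encodes the cystatin relative fetuin-B. Fetub had signals of 41.7, 83.9 and 53.8 on Ly6G+ arrays, against 125, 94.6 and 108 on Ly6G- arrays, with no overlap, as for 7.86% of all genes in the lower direction, and a log2 fold change of -0.75 ± 0.42 (SE; adjusted p = 0.836 by limma). Csta1, a further stefin A gene, had signals of 2.51 to 42.6 over the 6 arrays and was not kept.

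By the brightest probe set of each gene, the proteases that these inhibitors bind had log2 fold changes of at most 1.19. That is below those of Stfa2l1, Stfa3 and Cst7 (1.71 for Cst7) and not below those of Cstb and Cst3. Further probe sets, described under other observations, ran from -0.78 for Ctso to 1.84 for Ctsb. All 11 listed, 10 cathepsins and legumain, were kept, and 8 had positive and 3 negative log2 fold changes, with a median of 0.28 beside -0.07 over all genes. At an unadjusted p under 0.05, 2 of 11 were higher (2.99% of all genes) and 0 lower (3.19%), and 0 passed the adjusted threshold. Blocking on the side of the hybridization controls, 7 were positive with a median of 0.05. With that block 1 of 11 was higher at an unadjusted p under 0.05 by limma, beside 3.4% of all kept probe sets. Under common median scaling 8 were positive with a median of 0.61, where that of all genes kept was 0.24.

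Ctsl, cathepsin L, had signals of 8519, 7012 and 9656 on Ly6G+ arrays, against 5055, 3996 and 2484 on Ly6G- arrays, with no overlap. Its log2 fold change was 1.17 ± 0.35 (SE; adjusted p = 0.836 by limma), and 0.996 with the side as a block. Ctsk, cathepsin K, had 395, 162 and 240 against 171, 132 and 40.9, overlapping, with a log2 fold change of 1.19 ± 0.50 (SE), and 0.88 with the side as a block. Ctsc, cathepsin C, the protease that cystatin F restrains, had 9608, 10372 and 12444 against 8411, 10401 and 4949, also overlapping, with 0.50 ± 0.37 (SE). Ctss, cathepsin S, which trims the MHC class II invariant chain, had -0.42 ± 0.48 (SE), with the sign turned under quantile normalization (0.11), and signals of 18150 to 19780 on low-side arrays, against 35934 to 43249 on high-side arrays. By their brightest probe sets, Ctsb had a log2 fold change of 0.03, Ctsh 0.28, Ctso 0.42, Ctsz 0.36, Ctsf -0.36, Ctsw -0.37 and Lgmn, legumain, 0.19, and the sign of Lgmn turned with the side as a block (-0.22).

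**Figure D5:**
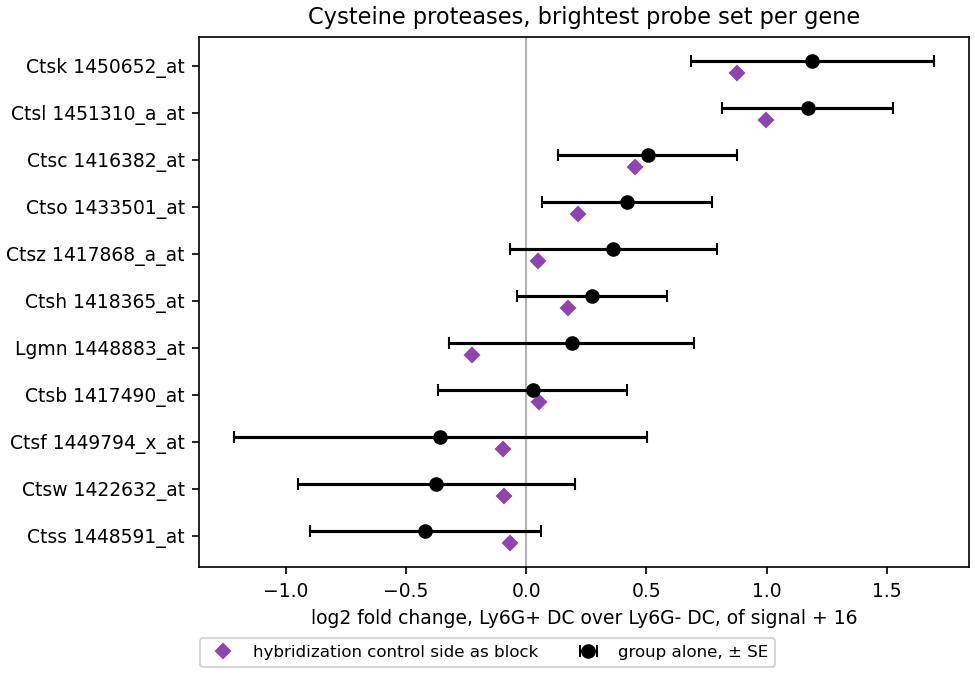
Log2 fold changes of signal + 16, Ly6G+ DC over Ly6G- DC, of the 11 cysteine proteases by the brightest probe set of each gene: black points ± SE from limma with the group alone, and purple diamonds with a block for the hybridization control sides. Ctsk and Ctsl stand highest (1.19 and 1.17), the others lie between -0.42 and 0.50, and Lgmn changes sign with the block; under quantile normalization Ctss changes sign.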

How the data were processed

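Per the submitters' processing notes, the authors made the deposited signal intensities with Affymetrix Expression Console 2.0, MAS5 and GCOS; other settings are not given in the sources used here. From the values, each array's mean after trimming 2% at either end was 250.0, and median signals were 56.0 to 90.8. MAS5 leaves dim probe sets noisy, and with a common mean the bright probe sets of an array can shift the scaled signals of its other probe sets.

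Signals were analysed as log2(signal + 16). The filter kept the 28254 non-control probe sets that exceeded the 40th percentile of 3 or more of the 6 arrays. The group difference was fitted by limma (3.58.1, R 4.3.3; lmFit, eBayes with an intensity trend, Benjamini-Hochberg over kept probe sets), group alone, tested on simulated data. Lists used each gene's brightest kept probe set, with no list test. Errors are SE from limma or SD over 3 arrays, and the number of arrays limits precision.

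The members, lists, sides of the hybridization controls and settings were chosen with earlier results of these data known. Named genes were the members, all kept genes of the 2 pathway lists, the 3 brightest per marker list (printed for 6 of these lists; the others are given as counts), Itgax and the 5 most alike per member. Csta1 was named after its values were seen. Alternatives were 3 blocks, 2 normalizations, 2 pseudocounts (1 and 64), no filter, a 60th percentile filter, 2 variance models, 1 probe set per gene and leaving out each array. Number-matched samples had deviations correlated at 0.52, 0.26 and -0.04. These values cannot decide whether equal numbers mark pairs, since Ly6G+ DC 3 and Ly6G- DC 3 lay on different sides. Mean r between arrays was 0.90 within a side of the hybridization controls and 0.85 across sides. The main fit left the numbers unpaired, and the replicate number as a block was 1 of the alternatives.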

Additional observations from a re-analysis of the deposited data

Results flagged for a closer look

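The probe set 1435761_at, whose annotation lists the stefin genes Stfa1 and Cstdc5, was not part of the comparison because it names several genes, and its signal was above that of the Ly6G- arrays on every Ly6G+ array. Its signals were 610, 441 and 1373 on the Ly6G+ arrays, against 94.4, 191 and 95.1 on the Ly6G- arrays. The log2 fold change was 2.43 ± 0.45 (SE; adjusted p = 0.414 by limma), with 3.08 within the low and 1.59 within the high side of the hybridization controls. Its order of arrays, with Ly6G+ DC 3 and Ly6G- DC 2 highest in their groups, was that of Stfa2l1 and Stfa3 at those places. The other probe set of this kind, 1449909_at for Cstdc4 and Csta2, was dim, at 18.4 to 82.7 over the 6 arrays, and its groups overlapped.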

How the results depend on the processing

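Of 107 values of the 6 probe sets under 18 alternative settings, 98 kept their direction and their side of the adjusted threshold of limma. The 4 that passed were all Stfa2l1: with the replicate number as a block (log2 fold change 4.40, adjusted p = 0.0317), with the array name as a block (0.0196), and without Ly6G- DC 1 or 2. The 5 that turned sign were all Cstb 1422506_a_at: 0.20 under quantile normalization, 0.18 under common median scaling, 0.12 with the block of hybridization control sides, and above 0 without Ly6G+ DC 1 or Ly6G- DC 2, in a range of -0.454 to 0.0575 over the arrays left out. The cause was not tested. Common median scaling moved the median of all kept probe sets from -0.06 to 0.23. Over all kept probe sets, limma called 0, but 19 with the replicate block and 21 with the array name block, of which 1 was a stefin or cystatin in each. Leaving out single arrays gave 0 to 24 calls, of which 0 to 1 were members: 24 when Ly6G- DC 1 was left out and 1 each for Ly6G- DC 2 and Ly6G+ DC 2. At an unadjusted p under 0.05 there were 778 higher and 811 lower, and 912 and 543 under quantile normalization, 1775 and 239 under common median scaling, 1017 and 1613 with no filter, and 584 and 360 with the filter at the 60th percentile. In both directions together these were 1589, with 2954 for the replicate block, 2980 for the array name block, 603 when the third Ly6G+ array was left out, and 3931 and 830 when the first and the third Ly6G- arrays were. The replicate block changed no other call of a member. Stfa2l1 and Cst7 fell below their array's 40th percentile on 2 and 1 Ly6G- arrays, which limits how exactly their folds are known.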

Other observations

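Some proteases have further probe sets, which in part gave other values than the brightest. For Ctsc, 1437939_s_at had signals of 712, 801 and 1395 on the Ly6G+ arrays, against 583, 299 and 173 on the Ly6G- arrays, with no overlap and a log2 fold change of 1.52 ± 0.44 (SE), where 1416382_at had 0.50. For Ctsb, 1444987_at had 231, 139.5 and 70.0 against 27.2, 35.1 and 16.3, with no overlap and a log2 fold change of 1.84 ± 0.53 (SE), where the brightest, 1417490_at, had 0.03, and 1417492_at had 0.82 with overlapping groups. Also for Ctsb, 1448732_at had 14428 on Ly6G+ DC 1 and 10670 on Ly6G- DC 1, against 874 to 1999 on the other arrays. Those 2 arrays carry a different array name in their titles from the others. For Ctsl, 1457724_at had signals of 176, 162 and 100 on the Ly6G+ arrays, against 108, 45.5 and 24.2 on the Ly6G- arrays. These groups overlapped, with a log2 fold change of 1.23 ± 0.50 (SE), where the brightest had 1.17. The further probe sets of Ctso and Ctsh had the other sign, with -0.78 for 1443084_at (the brightest 0.42) and -0.02 for 1443814_x_at (the brightest 0.28), and the groups overlapped in both.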
